A study of Xenopus laevis with 6 samples.

Results

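The 3 arrays numbered 1 were compared with the 3 arrays numbered 2, over animal caps of the frog Xenopus laevis. An animal cap is ectoderm cut from the top of the embryo, and all caps here were of gastrula stage 10.5. The members were chosen by the replicate number in the sample titles, and they are all 6 arrays of the series: 3 numbered 1 and 3 numbered 2. Each number holds 1 array of caps expressing Mixer, a homeodomain transcription factor, 1 of caps expressing Sox17beta, an HMG-box transcription factor, and 1 of uninjected caps. The labels give no strain, injected dose, number of caps, clutch of embryos or hybridization day, and describe the sex as mixed. Every difference below is replicate 1 minus replicate 2, taken within an injection group and averaged over the 3 groups, on the log2 scale, where 1 is 2-fold. Levels in all 6 arrays are given in the order uninjected, Mixer and Sox17beta. Caps of 1 number may share embryos, dissection, labelling and hybridization, so number and batch cannot be told apart. The p-values and ± errors measure how closely the 3 injection groups repeat the same difference, with a variance drawn in part from other probe sets. They do not measure how another batch of embryos would vary.

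The early frog embryo runs on RNAs and proteins stored in the egg. Its first cleavages are fast cycles driven by maternal cyclins, and after the midblastula transition the embryo transcribes its own genes, clears many egg RNAs and lengthens its cell cycle. By gastrulation the animal cap, if left alone, is on its way to epidermis and can still be turned to neural, mesodermal or endodermal fates. The genes of egg RNA storage, the cell cycle, RNA processing and ectoderm patterning therefore bear on the state of a cap. Some of them also differed between injection groups, so they are compared within a group. Since this species has a duplicated genome, many genes have a copy named .L, on the longer chromosome of a pair, and a copy named .S, on the shorter one.

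Control probe sets differed with the number on the arrays. The 18 hybridization controls, bacterial and phage transcripts spiked in at the hybridization step, had medians of 9.76, 9.93 and 9.83 on replicate 1 arrays and 8.4, 8.04 and 8.39 on replicate 2 arrays. Their median difference was 1.34 in uninjected, 1.76 in Mixer and 1.22 in Sox17beta caps, and all 18 were higher in replicate 1 in each group. The 44 controls for absent transcripts had medians of 3.72, 3.84 and 4.06 on replicate 1 arrays and 3.82, 3.82 and 3.85 on replicate 2 arrays. On Sox17beta replicate 1, 48.5% of probe sets lay above every absent control, against 57.8% to 60.7% on the other 5 arrays. The highest absent control was 6.62 on that array and 5.9 to 6.09 on the others, so its share was taken at a higher cutoff. The Gapd 3′ minus 5′ value, a sign of RNA integrity, was 0.76, 0.79 and 0.66 on replicate 1 arrays and 0.67, 0.79 and 0.83 on replicate 2 arrays, which overlap. The β-actin 3′ minus 5′ value was -3.57, -3.33 and -3.67 on replicate 1 arrays and -3.35, -3.24 and -3.52 on replicate 2 arrays, lower in replicate 1 in each of the 3 groups though the ranges overlap. The β-actin 3′ probe set itself had 5.56 to 6.33, near or below the highest absent control, so its value is not a clear sign of RNA integrity. The part of RNA integrity and of the hybridization step in the differences between numbers was not tested.

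**Figure D1:**
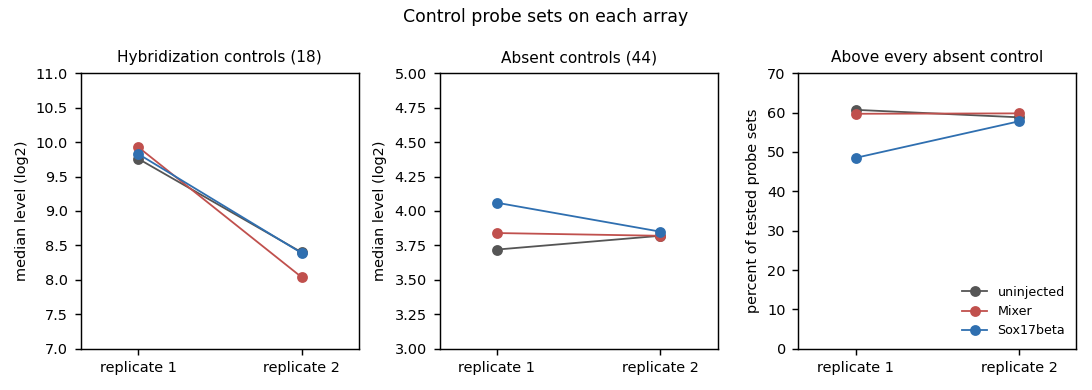
Median log2 level of the hybridization controls (left) and of the absent controls (middle), and the percent of tested probe sets above every absent control (right), for each array, with replicate 1 left and replicate 2 right and the arrays of 1 injection group joined. Hybridization controls lie at 9.76 to 9.93 on replicate 1 arrays and 8.04 to 8.4 on replicate 2 arrays, and the Sox17beta replicate 1 array has the lowest share above the absent controls, 48.5%.

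The replicate number accounted for more of the variation between arrays than the injected factor did. Over the 15491 tested probe sets it held 53.5% of the sum of squares between the 6 arrays, against 37.7% for the injection group and 8.82% for what neither explains additively. At an adjusted p of 0.05, 6108 probe sets (39.4%) differed between the numbers. Of these, 3104 (20.0%) were higher and 3004 (19.4%) lower in replicate 1. Their median size was 0.57, and 767 of them had a mean difference of at least 2-fold, 386 higher and 381 lower in replicate 1. With 1 pair left out, a fit that keeps 1 residual degree of freedom in place of 2, the count was 1211 (7.82%) without the Mixer pair, 3375 without the uninjected pair and 4625 without the Sox17beta pair. These counts reflect the reach of the smaller fits as well: the smallest adjusted p over all probe sets was 0.0459 without the Mixer pair, 0.0204 without the uninjected pair and 0.0183 without the Sox17beta pair. The differences themselves moved less, and the 6108 had a median size of 0.54, 0.60 and 0.58 in these 3 fits. Of the 138 named probe sets that were called, 52 lost the call without the Mixer pair, and their differences there were 0.627 to 1.32 times those of the full fit (median 0.943). A call lost without that pair below therefore does not show that the difference rests on it. An unpaired fit, without the block that pairs arrays by injection group, called 4708, of which 4682 were among the 6108.

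The differences ran alike in the 3 groups. Per-group differences correlated over probe sets at 0.867 between uninjected and Mixer, 0.776 between Mixer and Sox17beta and 0.732 between uninjected and Sox17beta caps. These correlations are descriptions over 15491 probe sets, and the points of a group share the same 2 arrays. The difference had the same sign in all 3 groups for 62.2% of probe sets. At least a 2-fold difference the same way in every group was found for 334 probe sets, 189 higher in replicate 1 (1.22%) and 145 lower (0.936%). Named genes accounted for 126 of the higher and 88 of the lower probe sets. When probe sets were cut into 10 bins by level, the brightest bin had a median difference of -0.095, with 24.4% called higher and 38.0% lower, and the dimmest 0.053, with 5.1% higher and 1.81% lower. The shares of a gene list are therefore to be read with the level of its members.

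**Figure D2:**
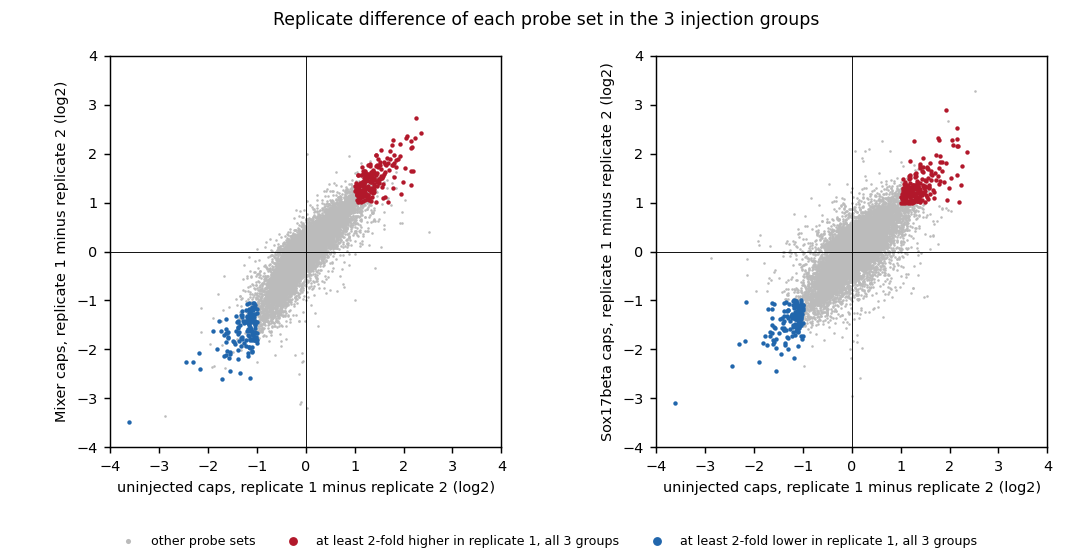
Each point is a probe set, placed by its difference between replicate 1 and replicate 2 (log2) in uninjected caps (x) and in Mixer or Sox17beta caps (y). The 189 probe sets at least 2-fold higher in replicate 1 in all 3 groups are red, the 145 at least 2-fold lower are blue, and the cloud lies along the diagonal in both panels.

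The 15 named genes with the largest higher level in replicate 1 differed by 1.75 to 2.27, that is 3.36-fold to 4.83-fold. For 14 of them every replicate 1 array lay above every replicate 2 array, which held for 23.0% of all probe sets and is close to given for genes chosen by their size. RNA-binding fragile X family member fxr1 was higher in replicate 1 in both copies. Copy fxr1.L had 11.84, 12.21 and 12.14 on replicate 1 arrays, against 10.25, 10.37 and 10.33 on replicate 2 arrays. Its difference was 1.75 ± 0.10 (SE of the fit, n = 3 pairs, adjusted p = 0.000271). The numbers did not overlap for fxr1.L, and fxr1.S differed by 1.65 ± 0.09 (adjusted p = 0.000271). Other genes of this set code for the cytochrome c oxidase assembly factor coa5.L (1.85 ± 0.09), the nucleolar chromatin factor baz2a.L (1.97 ± 0.18), the transcriptional repressor rest.S (1.83 ± 0.13) and the tight junction protein cldn6.1.S (1.76 ± 0.18). Dimmer rest.S probe sets, above the absent controls on 0 of the 6 arrays, were not called (0.27, adjusted p = 0.109, and 0.06, adjusted p = 0.667). The other copy cldn6.1.L was not called either (0.09 ± 0.09, adjusted p = 0.487). The apelin receptor aplnr.S, a gene of mesoderm and vessels in later embryos, was the exception to the separation of the numbers. It had 7.68, 9.26 and 8.31 on replicate 1 arrays, against 5.71, 8.45 and 5.65 on replicate 2 arrays, so that Mixer replicate 2 lay within the replicate 1 range. Its difference of 1.81 ± 0.30 (adjusted p = 0.00366) did not pass without the uninjected pair (adjusted p = 0.0739), nor did that of cldn6.1.S without the Mixer pair (difference 1.76, adjusted p = 0.0509).

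The 15 named genes with the largest lower level in replicate 1 differed by -3.39 to -1.69, and only 6 of them were above every absent control on all arrays. For 13 of them every replicate 1 array lay below every replicate 2 array, against 21.5% of all probe sets. At the head stood ugt3a2.L, a UDP-glycosyltransferase gene, with 4.64, 4.9 and 5.09 on replicate 1 arrays, against 8.25, 8.38 and 8.18 on replicate 2 arrays. That is a difference of -3.39 ± 0.12 (adjusted p = 0.000199), and on the replicate 1 arrays the probe set lay below the highest absent control. Phospholipid hydroperoxide peroxidase gpx4.L had 7.73, 7.28 and 7.63 on replicate 1 arrays, against 9.27, 9.34 and 9.41 on replicate 2 arrays (-1.79 ± 0.12, adjusted p = 0.000368), and its copy gpx4.S differed by -1.20 ± 0.11 (adjusted p = 0.000589). All replicate 1 values of gpx4.L lay below all replicate 2 values. The mitochondrial sulfide oxidase sqor.S (-1.71 ± 0.09), above the absent controls on 3 of the 6 arrays, and the protein phosphatase 1 catalytic subunit ppp1ca.L (-1.69 ± 0.18) were lower in replicate 1 too. The glucocorticoid receptor probe set nr3c1.L was called lower (-1.92 ± 0.13) but lay above the absent controls on 1 of the 6 arrays, and the nr3c1.S probe sets had 0.15 and 0.12 and were not called (adjusted p = 0.333 and 0.327). The histone deacetylase hdac1.S differed by -1.83 ± 0.20 on 1 probe set and by -1.29 ± 0.14 on another. Leaving out the Mixer pair gave the first probe set of hdac1.S a difference of -1.68 (adjusted p = 0.0535) and ppp1ca.L one of -1.52 (adjusted p = 0.0512).

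The largest differences belong to a probe set and not always to the whole gene. For zmat2.L, a spliceosomal zinc finger gene, 1 probe set was higher in replicate 1 by 1.90 ± 0.09, while another had -0.44 ± 0.11, both called. Mitochondrial thioredoxin txn2.L had -1.85 ± 0.11 on 1 probe set and 0.05 ± 0.14 (adjusted p = 0.816) on the other. The ubiquitin ligase subunit btrc.S had 2.24, 0.79 and -0.52 on its 3 probe sets, all called. Among 424 gene copies with at least 2 called probe sets, 64 had called probe sets in both directions. The cause was not tested.

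Among the unnamed probe sets, the largest difference higher in replicate 1 was 2.34 ± 0.18 (adjusted p = 0.000412), and the next 2.26 ± 0.11 (adjusted p = 0.000255). The largest lower ones were -2.35 ± 0.09 (adjusted p = 0.000199) and -2.15 ± 0.11 (adjusted p = 0.000262). All of these 4 probe sets lay above every absent control on all 6 arrays.

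RNAs known as stores of the oocyte and egg were more often higher than lower in replicate 1. Of 57 measured copies, 24 were higher and 11 lower, with a median difference of 0.237. Over all 7531 named gene copies with 1 probe set each, 22.7% were called higher and 22.3% lower, with a median of 0.027, and over the copies with a mean level above the absent controls 28.7% were higher and 30.5% lower. The list had 7 higher and 3 lower without the Mixer pair, without the uninjected pair 16 higher and 5 lower, and without the Sox17beta pair 23 higher and 7 lower. In tissue RNA of this kind, fewer cells of a type and less RNA per cell cannot be told apart.

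Cyclin A1, the embryonic cyclin of the cleavage cycles, was among the clearest of these genes. Copy ccna1.S had 10.75, 11.24 and 11.36 on replicate 1 arrays, against 8.9, 9.61 and 10.5 on replicate 2 arrays. Copy ccna1.L had 10.99, 11.48 and 11.61 on replicate 1 arrays, against 9.72, 10.28 and 10.72 on replicate 2 arrays. The numbers do not overlap in either copy, and the differences were 1.45 ± 0.18 for ccna1.S (adjusted p = 0.0014) and 1.12 ± 0.11 for ccna1.L (adjusted p = 0.000644). Kinase mos.L, which holds the egg in meiotic arrest, had 10.05, 10.45 and 10.41 on replicate 1 arrays, against 9.23, 9.18 and 9.55 on replicate 2 arrays (0.98 ± 0.12, adjusted p = 0.0011). The deadenylation adaptor btg4.S had 9.39, 10.34 and 10.97 on replicate 1 arrays, against 7.55, 9.04 and 10.08 on replicate 2 arrays (1.34 ± 0.17, adjusted p = 0.00143). Here the ranges overlap, because the group order uninjected, Mixer, Sox17beta held on both numbers and spread each number widely.

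Egg T-box factor vegt.L had 7.25, 7.72 and 7.32 on replicate 1 arrays, against 6.0, 6.59 and 5.95 on replicate 2 arrays, a difference of 1.25 ± 0.09 (adjusted p = 0.000409). Its copy vegt.S (0.93 ± 0.13), the deadenylation-linked tob2.L (1.26 ± 0.12), the egg Wee1-type kinase wee2.L (0.75 ± 0.11), the nucleoplasmin copy npm2.S (0.73 ± 0.11) and the egg coat gene zpd.L (0.61 ± 0.10) were higher in replicate 1 as well. Members called the other way were cyclin E1 ccne1.L (-1.0 ± 0.10), the germ cell helicase ddx4.L (-0.99 ± 0.11) and the oocyte elongation factor copies eef1a1o.S (-0.81 ± 0.21) and eef1a1o.L (-0.72). Other ccne1.L probe sets had -1.05 ± 0.10, called, and 0.26 ± 0.11, not called (adjusted p = 0.12). The larp1b copies, of an RNA-binding La-related family, were called in opposite directions, larp1b.S 0.88 ± 0.12 and larp1b.L -0.84 ± 0.09. With the Mixer pair left out, ccna1.S had an adjusted p of 0.0656, btg4.S 0.0618, vegt.S 0.0682, npm2.S 0.0684, zpd.L 0.0609, eef1a1o.S 0.0716 and eef1a1o.L 0.0612. The eef1a1o.S probe set also missed the threshold without the uninjected pair (adjusted p = 0.0876) or the Sox17beta pair (adjusted p = 0.0711). Of 18 germ plasm and vegetal cortex copies, which include vegt, 6 were higher (33.3%) and 2 lower (11.1%) in replicate 1. The vegt copies are on the mesoderm list as well and are not marks of egg RNA alone. Over all gene copies the shares were 22.7% and 22.3%. A higher member was bicc1.S (1.37 ± 0.16, adjusted p = 0.00118).

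**Figure D3:**
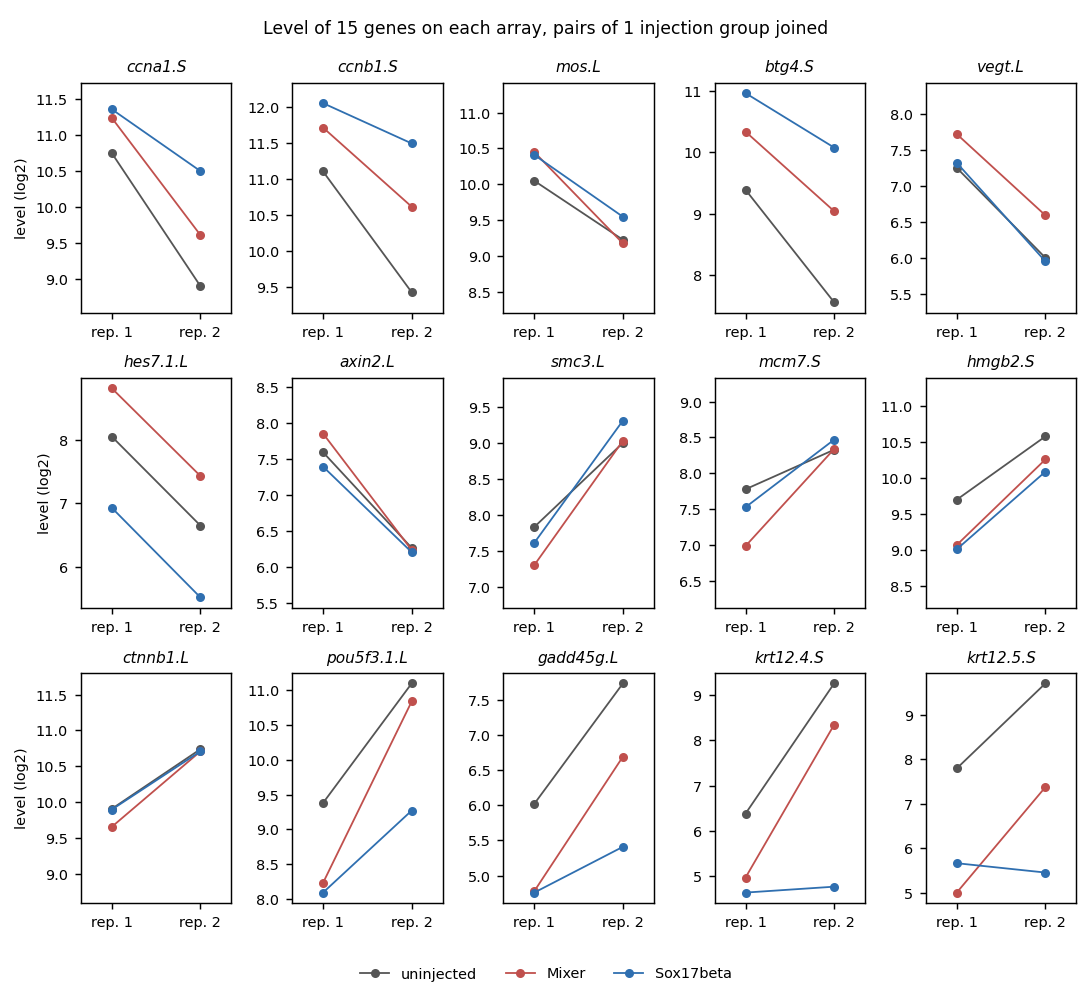
Log2 level of 15 genes on each array, replicate 1 left and replicate 2 right, with the 2 arrays of an injection group joined and each panel on its own axis (a gene with several probe sets is shown by the brightest). Lines of ccna1.S to axin2.L slope down and those of smc3.L to gadd45g.L slope up in all 3 groups, while krt12.4.S and krt12.5.S separate by number in uninjected and Mixer caps and not in Sox17beta caps.

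Cell cycle genes were called in both directions. Of 77 G1/S and DNA replication copies, 29 were higher and 18 lower in replicate 1, with a median of 0.177. Of 98 G2/M and mitosis copies, 38 were higher and 21 lower, with a median of 0.182. Both medians were above that of all gene copies. The higher shares, 37.7% and 38.8%, were above the 22.7% of all gene copies. They were nearer to the 28.7% of gene copies with a mean above the absent controls. These lists are bright, with 24 of 77 G1/S and 47 of 98 G2/M copies in the brightest bin. The counts called were 10 higher and 2 lower for G1/S, and 7 higher and 5 lower for G2/M, when the Mixer pair was left out. Without the uninjected pair they were 19 higher and 10 lower for G1/S, and 27 higher and 17 lower for G2/M. The ccna1 copies are on the G2/M list and on the egg list.

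Several genes of replication origins and of DNA synthesis were higher in replicate 1. Origin recognition subunit orc1.L had 8.86, 9.27 and 9.17 on replicate 1 arrays, against 7.76, 8.18 and 8.07 on replicate 2 arrays, and the 3 differences of 1.1, 1.09 and 1.1 were nearly the same (mean 1.1 ± 0.09, adjusted p = 0.000437). Origin-firing kinase cdc7.L (1.25 ± 0.10), MCM helicase partner cdc45.L (1.09 ± 0.11), mcm10.L (1.04 ± 0.11), ribonucleotide reductase rrm1.L (1.06 ± 0.09) and the licensing inhibitor geminin gmnn.S (1.14 ± 0.10) followed. Of the MCM2 to MCM7 helicase, some copies were called lower in replicate 1 and others were not called. The lower ones were mcm7.L (-0.97 ± 0.16), mcm7.S (-0.95 ± 0.15), mcm6.2.L (-0.92 ± 0.14), mcm6.2.S (-0.58), mcm2.L (-0.54 ± 0.09), mcm4.L (-0.42), mcm5.L (-0.40) and mcm6.L (-0.38). The helicase copies mcm3.L (0.25, adjusted p = 0.0694), mcm4.S (0.10, adjusted p = 0.553) and mcm5.S (0.15, adjusted p = 0.432) were not called. When the Mixer pair was left out, mcm7.L had an adjusted p of 0.0798, mcm7.S 0.0604, mcm6.2.L 0.0684 and mcm2.L 0.0626, and without the Sox17beta pair mcm7.L had 0.0589 and mcm7.S 0.0532.

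Among mitotic genes, several spindle and kinetochore parts were higher in replicate 1. The kinetochore protein nuf2.L had 8.29, 8.48 and 8.44 on replicate 1 arrays, against 6.98, 6.74 and 6.83 on replicate 2 arrays (1.55 ± 0.11, adjusted p = 0.0004). Both copies of the spindle motor kif11 (kif11.L 1.11 ± 0.12, kif11.S 1.01 ± 0.10), the mitotic kinase aurka.S (1.05 ± 0.11) and the anaphase-promoting complex activator fzr1.L (1.14 ± 0.09) were higher too. Cyclin B1 ccnb1.S had 11.1, 11.71 and 12.05 on replicate 1 arrays, against 9.42, 10.61 and 11.49 on replicate 2 arrays, which overlap. Its difference was 1.11 ± 0.19 (adjusted p = 0.0043), and without the Mixer pair the adjusted p was 0.104.

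Several genes of cohesin, the ring that holds sister chromatids together, were called lower in replicate 1. Subunit smc3.L had 7.83, 7.3 and 7.61 on replicate 1 arrays, against 9.0, 9.03 and 9.31 on replicate 2 arrays, on its brighter probe set (-1.53 ± 0.13, adjusted p = 0.000524), and -2.14 ± 0.18 on the other. Its partners rad21.S (-1.09 ± 0.11), rad21.L (-0.45) and smc1a.L (-0.87 ± 0.14, without the Mixer pair adjusted p = 0.0806) were lower in replicate 1 as well. So were the chromatin protein hmgb2.S (-1.05 ± 0.10), the anaphase-promoting complex subunit cdc27.S (-1.08 ± 0.11) and the nuclear lamina genes lmnb1.S (-0.90 ± 0.12) and lmnb1.L (-0.91 ± 0.16). The adjusted p was 0.0587 for lmnb1.S and 0.113 for lmnb1.L without the Mixer pair, and without the Sox17beta pair lmnb1.L had 0.0682. The grouping into origin and DNA synthesis, MCM2 to MCM7, spindle and cohesin genes was made after the values were seen.

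**Figure D4:**
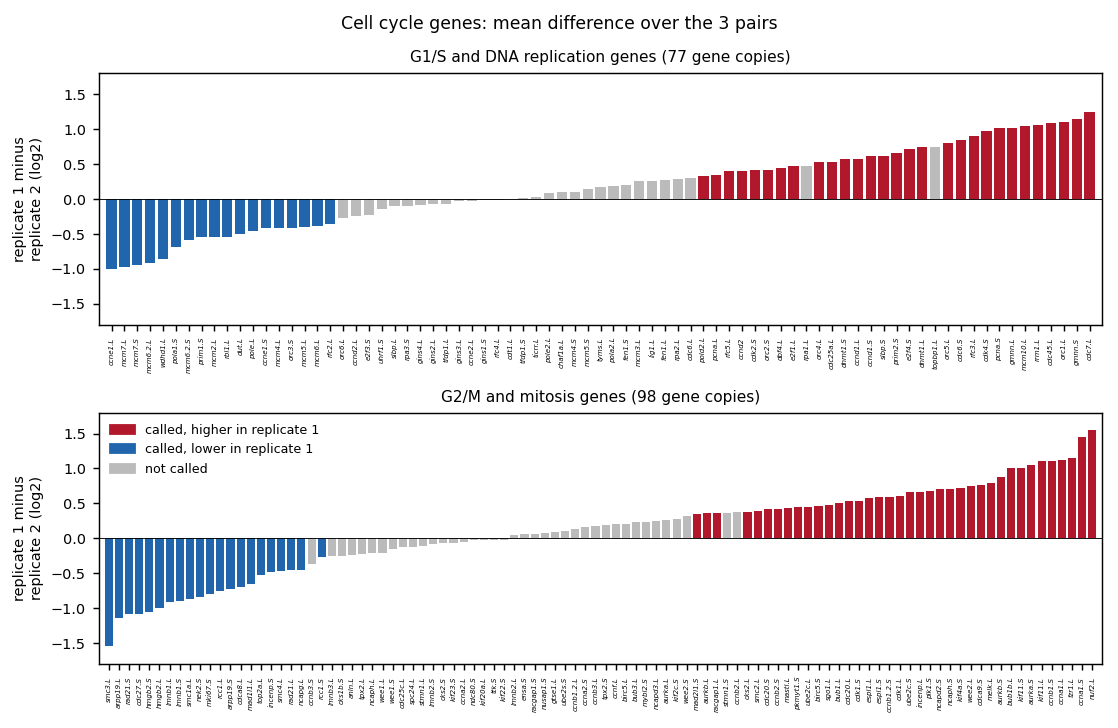
Mean difference over the 3 pairs, replicate 1 minus replicate 2 (log2), of every measured copy of the G1/S and replication list (top, 77) and of the G2/M and mitosis list (bottom, 98), ordered by size. Copies called higher in replicate 1 are red (29 and 38), called lower blue (18 and 21), and the rest grey, from smc3.L at -1.53 to nuf2.L at 1.55.

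Spliceosome and RNA-binding factors had the largest share called in 1 direction and the median farthest from 0 of the 29 gene lists. Of 104 copies, 77 (74.0%) were lower and 8 higher in replicate 1, with a median of -0.687, and the medians by group were -0.48 in uninjected, -0.845 in Mixer and -0.605 in Sox17beta caps. Leaving out the Mixer pair left 20 called lower and 3 higher, and leaving out the uninjected or the Sox17beta pair left 59 or 58 lower. The list is bright: 60 of its 104 copies were in the brightest bin, where 38.0% of probe sets were lower, and 30.5% were lower among all gene copies with a mean above the absent controls. U2 particle subunit sf3a1.L had 7.63, 6.96 and 7.06 on replicate 1 arrays, against 8.62, 8.63 and 8.58 on replicate 2 arrays (-1.39 ± 0.14, adjusted p = 0.000741). The Sm core protein snrpg.S had 9.21, 8.47 and 8.71 on replicate 1 arrays, against 10.2, 10.08 and 10.14 on replicate 2 arrays (-1.34 ± 0.13, adjusted p = 0.000684). Neither gene overlapped between the numbers, and on replicate 2 arrays the 3 groups lay close together. The 3′ splice site factor u2af1.S (-1.32 ± 0.16), the splicing regulator srsf6.S (-1.17 ± 0.11), sf3b2.L (-1.21 ± 0.10) and the heterogeneous ribonucleoprotein hnrnpab.L (-1.35 ± 0.16) were lower likewise. The members called higher were led by rbm7.L (1.23 ± 0.09), an adaptor of the nuclear exosome, rbm38.L (1.17 ± 0.14), an RNA stability factor, and rbm24.S (0.85 ± 0.12), known for splicing in muscle.

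Proteasome, histone and translation genes were more often lower than higher in replicate 1. Their lower shares were 50%, 52.6% and 44.4%, against 30.5% of gene copies with a mean above the absent controls and 38.0% of the brightest bin, so that of the translation factors is near the background. Of 44 proteasome subunit copies, 22 were lower and 2 higher in replicate 1, with a median of -0.26, and without the Mixer pair 4 were called, each of them lower. Lower members included the core subunit psma2.L (-0.96 ± 0.13, without the Mixer pair adjusted p = 0.0506), the ubiquitin receptor psmd4.S (-0.90 ± 0.10) and the ATPase psmc3.L (-0.80 ± 0.09), and psmd6.L was higher (0.83 ± 0.16). The copy psmc3.S was not called (-0.11 ± 0.09, adjusted p = 0.393). The adjusted p of psmd6.L was 0.0723 without the Mixer pair and 0.0697 without the Sox17beta pair. Of 19 histone copies, 10 were lower and 1 higher, and without the Mixer pair 1 was called, which was higher. The histone median was -0.08 in uninjected, -0.5 in Mixer and -0.36 in Sox17beta caps. Histone counts also depended on the scaling. After quantile normalization and after cyclic loess 7 were lower (36.8%), a share near that of the brightest bin. The median over the 3 pairs went from -0.38 to -0.263 and -0.18. The variant histone h2az1.L had 11.52, 10.85 and 11.18 on replicate 1 arrays, against 12.19, 12.01 and 11.81 on replicate 2 arrays (-0.82 ± 0.13, adjusted p = 0.00259, without the Mixer pair 0.0508). Of 63 translation factor copies, 28 were lower and 14 higher, with initiation factor eif2s2.L at -1.23 ± 0.11 and poly(A)-binding pabpc1.S at -0.78 ± 0.09. Another pabpc1.S probe set was not called (0.19 ± 0.11, adjusted p = 0.247), while pabpc1.L was lower (-0.93 ± 0.13). When the Mixer pair was left out, 5 translation factor copies were called, each of them lower.

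Cytosolic ribosomal protein genes depended on the scaling. Of 75 copies, 27 were lower and 10 higher in replicate 1 with a median of -0.127, while after cyclic loess 15 were lower and 15 higher and after quantile normalization 19 lower and 13 higher. With the Mixer pair left out, 1 was called each way. The clearest member was higher, rps12.L, with 9.06, 9.24 and 9.34 on replicate 1 arrays, against 8.22, 8.18 and 8.24 on replicate 2 arrays (1.0 ± 0.10, adjusted p = 0.000662). Of 70 copies of nuclear genes for mitochondrial respiration, 20 were lower and 11 higher, and of 63 heat shock and unfolded protein genes 21 were lower and 9 higher. The lower shares of ribosomal (36.0%), respiration (28.6%) and heat shock genes (33.3%) are near the 30.5% of gene copies above the absent controls. With the Mixer pair left out, respiration genes had 2 calls and heat shock genes 4 lower and 1 higher. Lower members included the chaperone hsp90ab1.S, with a difference of -1.34 ± 0.14 (adjusted p = 0.00081), and the disulfide isomerase pdia3.S, with -1.02 ± 0.09 (adjusted p = 0.000583).

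**Figure D5:**
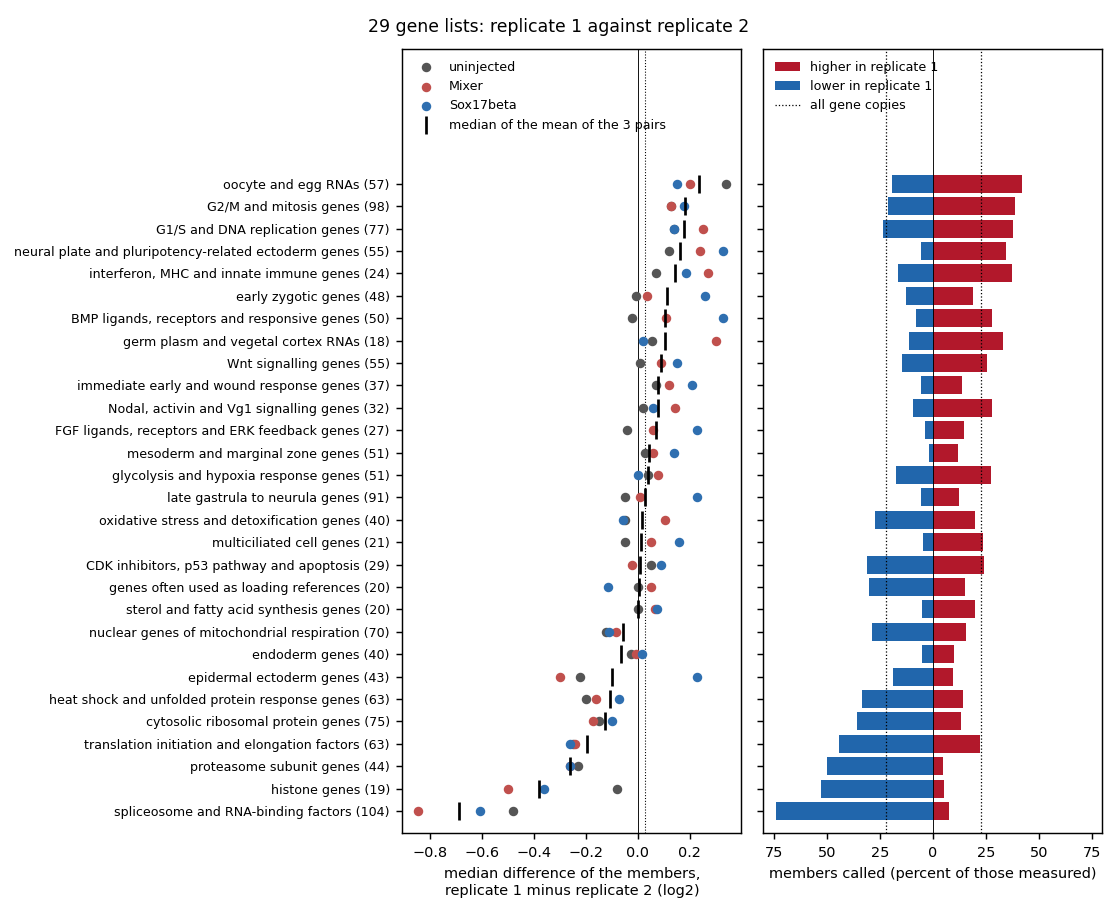
Left, median difference of the members of 29 gene lists, replicate 1 minus replicate 2 (log2), in each injection group (points) and for the mean of the 3 pairs (bars), with the number of gene copies in brackets. Right, percent of members called higher (red, to the right) or lower (blue, to the left) in replicate 1, with dotted lines at the shares over all gene copies, 22.7% and 22.3%. The spliceosome list reaches 74.0% lower, and oocyte and egg RNAs 42.1% higher.

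Genes of embryonic stage gave no common direction. Of 48 early zygotic copies, genes that switch on near the midblastula transition and fall by mid gastrula, 9 were higher and 6 lower in replicate 1, and without the Sox17beta pair 3 were higher and 6 lower. Of 91 copies of genes known to come on from late gastrula into neurula stages, 11 were higher and 5 lower, with a median of 0.027. Both shares (12.1% and 5.49%) lay below those of all gene copies. Only 18 of the early and 24 of the later copies lay above every absent control on all arrays. Dim probe sets were called less often, so the low shares are to be read with that level. Median centring gave 8 higher and 6 lower for these later genes, and leaving out the Sox17beta pair 9 higher and 8 lower. Early gene hes7.1.L, a repressor of the Hes family, had 8.05, 8.81 and 6.93 on replicate 1 arrays, against 6.65, 7.43 and 5.52 on replicate 2 arrays. The ranges overlap through the injection groups, yet the 3 differences were 1.4, 1.38 and 1.41 (1.40 ± 0.09, adjusted p = 0.000359), and a dimmer probe set of the same gene had 0.59 ± 0.14. The small GTPase rasl11b.L, also an early gene, differed by 1.70 ± 0.15 (adjusted p = 0.000583). Among the early genes called lower were the Oct4-family factor pou5f3.1.L and the growth arrest gene gadd45g.L. For pou5f3.1.L the replicate 1 arrays had 9.38, 8.23 and 8.09, against 11.1, 10.84 and 9.27 on replicate 2 arrays (-1.84 ± 0.24, adjusted p = 0.00155). For gadd45g.L they had 6.02, 4.78 and 4.76, against 7.73, 6.69 and 5.41 (-1.42 ± 0.23, adjusted p = 0.00309), with adjusted p of 0.0878 without the Mixer pair and 0.0664 without the uninjected pair. In both genes the Sox17beta replicate 2 array was the lowest of its number and lay within the replicate 1 range.

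Neural and pluripotent ectoderm genes were more often higher than lower in replicate 1. Of 55 copies, 19 (34.5%) were higher and 3 (5.45%) lower, against 22.7% and 22.3% of all gene copies, with a median of 0.163, and without the Mixer pair 4 were higher and 2 lower, against 9 and 2 without the uninjected pair. The SoxB1 factor sox3.L had 11.51, 11.3 and 10.78 on replicate 1 arrays, against 10.69, 10.35 and 10.3 on replicate 2 arrays (0.75 ± 0.11, adjusted p = 0.00253). All replicate 1 arrays lay above all replicate 2 arrays for sox3.L, as they did for sox2.L (0.70 ± 0.13, adjusted p = 0.00568) and sox11.S (0.78 ± 0.10, adjusted p = 0.0014). The let-7 regulator lin28b.S differed by 1.07 ± 0.09 (adjusted p = 0.000534). Against this direction, the pluripotency factor pou5f3.1.L, also on this list, was lower by -1.84 ± 0.24 (adjusted p = 0.00155). It was the only copy of the list at least 2-fold apart the same way in all 3 groups. The adjusted p of sox3.L was 0.066, of sox2.L 0.102 and of sox11.S 0.0539 without the Mixer pair, and without the uninjected pair sox2.L had 0.0558.

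Of 43 epidermal copies, 4 (9.3%) were called higher and 8 (18.6%) lower in replicate 1, against 22.7% and 22.3% of all gene copies. The medians were -0.22 in uninjected, -0.3 in Mixer and 0.23 in Sox17beta caps, a difference between groups that was not tested, since each has 1 pair. BMP (0.33), early zygotic (0.26) and late gastrula genes (0.23) also had their highest median in Sox17beta caps. The replicate 1 array of these caps had the highest median of the absent controls, and a link was not tested. Without the Sox17beta pair 2 were higher and 13 lower, without the uninjected pair 2 higher and 3 lower, and without the Mixer pair 1 was called, which was lower. The larval keratin krt12.4.S had 6.38, 4.97 and 4.64 on replicate 1 arrays, against 9.25, 8.34 and 4.77 on replicate 2 arrays. It was lower in replicate 1 in uninjected (-2.87) and Mixer caps (-3.37), while Sox17beta caps lay below the highest absent control on both numbers (-0.13). Mixer replicate 1 also lay below its highest absent control (5.99), so the size of the Mixer difference is not exact. The mean, -2.12 ± 0.55 (adjusted p = 0.0208), did not pass without the uninjected pair (adjusted p = 0.206) or the Mixer pair (adjusted p = 0.257). The copy krt12.4.L, above the absent controls on all 6 arrays, differed by -1.04 in uninjected, -1.42 in Mixer and 0.37 in Sox17beta caps. Over the 3 pairs krt12.4.L was not called (-0.70 ± 0.31, adjusted p = 0.12). A second keratin, krt12.5.S, had 7.79, 5.0 and 5.66 on replicate 1 arrays, against 9.7, 7.37 and 5.45 on replicate 2 arrays (-1.36 ± 0.44, adjusted p = 0.0462, and 0.307 without the uninjected pair and 0.389 without the Mixer pair). Its Mixer replicate 1 level and both Sox17beta levels lay below the highest absent control as well. The brightest keratin, krt70.S, had 12.22, 11.63 and 10.98 on replicate 1 arrays, against 12.39, 12.11 and 9.98 on replicate 2 arrays. On that probe set it was not called (0.12, adjusted p = 0.768), nor on those with 0.12 (adjusted p = 0.748) and -0.19 (adjusted p = 0.464). A dimmer krt70.S probe set, above the absent controls on 3 of the 6 arrays, was called lower (-0.76 ± 0.24, adjusted p = 0.0411). Epithelial adhesion gene epcam was lower in replicate 1 in both copies, with differences of -1.0 ± 0.15 for epcam.L and -0.77 ± 0.10 for epcam.S (without the Mixer pair adjusted p = 0.0508). The tight junction gene cldn6.1.S, also on the epidermal list, went the other way (1.76 ± 0.18, adjusted p = 0.000726, without the Mixer pair 0.0509). It was the only copy of the list at least 2-fold apart the same way in all 3 groups.

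Signalling genes were called in both directions, also within a pathway, and no list had a higher share much above the 22.7% of all gene copies: it was 25.5% for Wnt, 28.0% for BMP, 28.1% for Nodal, 14.8% for FGF and 13.5% for immediate early genes. The lower shares, from 3.7% to 14.5%, were under the 22.3% of all gene copies. Many of these copies are dim, and dim probe sets were called less often. Above every absent control on all arrays lay 20 of 55 Wnt, 27 of 50 BMP, 14 of 32 Nodal, 13 of 27 FGF and 11 of 37 immediate early copies. Among copies with a mean above the 25th percentile, 36.1% of Wnt, 31.8% of BMP, 32.1% of Nodal, 23.8% of FGF and 8.33% of immediate early copies were higher. The share of all gene copies there was 26.1%. Of 55 Wnt pathway copies, 14 were higher and 8 lower in replicate 1, and without the uninjected pair 7 were called each way. The feedback target axin2 was higher in both copies. Copy axin2.L had 7.59, 7.85 and 7.39 on replicate 1 arrays, against 6.26, 6.23 and 6.2 on replicate 2 arrays (1.38 ± 0.11, adjusted p = 0.000446), and axin2.S differed by 1.05 ± 0.09 (adjusted p = 0.00053). The transducer β-catenin, ctnnb1.L, was lower, with 9.91, 9.66 and 9.9 on replicate 1 arrays, against 10.74, 10.71 and 10.71 on replicate 2 arrays (-0.90 ± 0.09, adjusted p = 0.00081), and ctnnb1.S had -0.74 ± 0.09 (without the Mixer pair adjusted p = 0.0502). Neither axin2 nor ctnnb1 overlapped between the numbers. The secreted Wnt antagonist sfrp2.S was higher by 1.19 ± 0.13 (adjusted p = 0.000804).

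Of 50 BMP ligand, receptor and target copies, 14 were higher and 4 lower, while without the Sox17beta pair 7 were higher and 8 lower. Among the higher ones were the co-receptor rgma.L (0.71 ± 0.09, adjusted p = 0.00118) and the ligand bmp2.L (0.81 ± 0.11, adjusted p = 0.00184, without the Mixer pair 0.0509). Of 32 Nodal and activin pathway copies, 9 were higher and 3 lower, with the co-receptor tdgf1.3.L at 0.96 ± 0.12 (adjusted p = 0.0015, without the Mixer pair 0.0579). Of 27 FGF pathway copies, 4 were higher and 1 lower. Of 37 immediate early and wound response copies 5 were higher and 2 lower, among them dusp1.S at 0.79 ± 0.11, which had an adjusted p of 0.0528 without the Mixer pair. The dusp1.S probe set was above the absent controls on 3 of the 6 arrays. The brighter copy dusp1.L, above them on all 6, was not called (0.18 ± 0.21, adjusted p = 0.563). Leaving out the Mixer pair left at most 1 call in each of the BMP, Nodal, FGF and immediate early lists.

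Metabolic, stress and immune genes were called in both directions, and most shares were near the 22.7% higher and 22.3% lower of all gene copies. The higher and lower shares were 27.5% and 17.6% for glycolysis, 20.0% and 27.5% for oxidative stress, 24.1% and 31.0% for p53 and 37.5% and 16.7% for immune genes. Of 51 glycolysis and hypoxia copies 14 were higher and 9 lower, with the glycolytic enolase eno1.L at 10.38, 10.68 and 10.56 on replicate 1 arrays, against 9.28, 9.32 and 9.36 on replicate 2 arrays (1.22 ± 0.09, adjusted p = 0.000437). Of 40 oxidative stress copies 8 were higher and 11 lower, the lower ones including both gpx4 copies. Of 29 CDK inhibitor, p53 and apoptosis copies 7 were higher and 9 lower, and of 20 sterol synthesis copies 4 were higher and 1 lower (3 and 2 after cyclic loess). Of 24 interferon and immune copies 9 were higher and 4 lower, and of 21 multiciliated cell copies 5 were higher and 1 lower (5 and 2 after median centring). Of 20 genes often used as loading references 3 were higher and 6 lower, with polyamine enzyme odc1.L at -0.49 ± 0.09 (adjusted p = 0.00643, without the Mixer pair 0.0832), and after cyclic loess 5 were higher and 4 lower. Leaving out the Mixer pair left at most 4 calls in each of these 7 lists.

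Markers of other germ layers were mostly at background in uninjected caps. Uninjected caps had all 12 epidermal marker copies above the absent controls on both numbers, while 2 of 11 mesoderm copies passed on replicate 1 and 0 on replicate 2, and 0 of 5 organizer and 0 of 4 multiciliated copies passed on either. Of 12 endoderm marker copies, 2 passed in uninjected replicate 1 and 3 in uninjected replicate 2. The summed mesoderm marker level was 9.54, 10.96 and 10.58 on replicate 1 arrays, against 8.77, 10.43 and 9.96 on replicate 2 arrays, higher in replicate 1 in each group. It holds both aplnr copies (aplnr.L 1.14 ± 0.23, aplnr.S 1.81 ± 0.30), the only 2 of the 11 copies called. The median difference of the 11 copies was 0.04, so the sum does not show that mesoderm markers in general were higher. The summed endoderm level was 8.99, 11.1 and 13.26 on replicate 1 arrays, against 9.03, 11.64 and 14.0 on replicate 2 arrays. Nearly all of this sum in Sox17beta caps was the injected gene. Without the 3 sox17 copies it was 8.45, 10.17 and 9.89 on replicate 1 arrays, against 8.58, 11.05 and 10.05 on replicate 2 arrays. The full mesoderm list had 6 of 51 copies higher and 1 lower (6 and 2 after cyclic loess). Its higher copies include vegt.L and vegt.S, which are on the egg list too. The full endoderm list had 4 of 40 higher and 2 lower, turned to 2 higher and 4 lower by quantile normalization and to 2 higher and 3 lower by cyclic loess. Both shares of each full list lay below the 22.7% higher and 22.3% lower of all gene copies. Only 2 mesoderm and 6 endoderm copies lay above every absent control on all arrays, and dim probe sets were called less often.

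The injected genes were high on both numbers in the caps that received them. Probe set mixer.L had 14.07 in Mixer replicate 1 and 14.06 in Mixer replicate 2, at the top of the range of the arrays, where a difference may not be resolved. For sox17b.1.S, the brighter probe set had 13.11 in Sox17beta replicate 1 and 13.9 in replicate 2, and the other 12.49 in replicate 1 and 13.11 in replicate 2, so that replicate 1 was lower on both (-0.79 and -0.62). Each is 1 pair of arrays, with no error of its own.

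A few genes differed between numbers in some injection groups and not in others. Hyaluronan synthase has2.S differed by -2.58 in Sox17beta caps, with 6.43 in replicate 1 and 9.01 in replicate 2, and by 0.16 in uninjected and 0.24 in Mixer caps. The endoderm factor gata6.L differed by -2.5 in Mixer caps, with 6.72 in replicate 1 and 9.22 in replicate 2, and by -0.14 in uninjected and -0.23 in Sox17beta caps. In uninjected caps it lay below the highest absent control on both numbers (5.55 and 5.69). Keratin krt70.L, with krt12.4.S and krt12.5.S, differed in uninjected (-1.87) and Mixer caps (-2.34) but had 0.34 in Sox17beta caps. Its Sox17beta levels (5.42 and 5.08) lay below the highest absent control on both numbers, and so did its Mixer replicate 1 level (5.93). Where levels lie that low, a difference may not be resolved. Neither has2.S (adjusted p = 0.314), gata6.L (adjusted p = 0.124) nor krt70.L (adjusted p = 0.0616) was called over the 3 pairs, and the difference between groups was not tested, since each group has 1 pair.

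The .L and .S copies of duplicated genes were compared on the same arrays. Whether a probe set of 1 copy also reads the other was not tested. Over all gene copies 22.7% were called higher and 22.3% lower, so some pairs called alike would occur with unrelated copies too. Of 1016 genes with both an .L and an .S copy measured, 288 had both copies called, and 250 of these were called in the same direction, 116 higher and 134 lower in replicate 1. The other 38 (13.2%) were called in opposite directions. Examples are the tRNA modification gene yrdc, with yrdc.L at 1.13 and yrdc.S at -1.65, and the 3′ processing factor cpsf6, with cpsf6.L at 0.91 and cpsf6.S at -0.84. Over the 1016 genes the differences of the copies correlated at 0.506, a description over genes measured on the same 6 arrays.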

How the data were processed

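Per the labels, RNA of 6 animal cap samples was hybridized to 6 Affymetrix arrays, and the values the authors deposited are log2 levels per probe set. RMA made them, per the submitters' processing notes. RMA brings arrays to a common distribution, so a difference is relative to the other genes of an array. Its version was not given in the sources used here. The lowest value was 2.24, the highest 14.07, and array medians lay at 6.49 to 6.54, so nothing was rescaled. Precision is limited by having 6 arrays.

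The 120 control probe sets among 15611 stayed out of the tests. Names came from the platform annotation, in which 9304 tested probe sets had 1 symbol, 195 several and 5992 none. By gene identifier 9227 matched the reference annotation, which updated 2, and 290 symbols were placeholders. No sequence was used here.

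The difference was fitted with limma 3.58.1 (R 4.3.3) as replicate number plus injection group (lmFit, eBayes, two-sided), with 3 pairs and 2 residual degrees of freedom. P-values were adjusted by Benjamini-Hochberg over 15491 probe sets, with a threshold of 0.05. No exact test is given, because 3 pairs allow no two-sided exact p under 0.25. The pairs come from the group and number in the titles. In the gene lists the probe set with the highest mean stood for a gene copy. Named were the 15 largest called differences in each direction alike in all groups, up to 4 members of each list with the smallest p, 2 unnamed probe sets each way, the 6 with the largest spread over groups, the injected genes, and their other probe sets. One gene named by this rule is not reported here. Further list members were named after their values were seen. The replicate comparison and the lists were chosen with earlier results of these data known. The fits were tested on simulated data. Figures were drawn with matplotlib 3.10.9.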

Additional observations from a re-analysis of the deposited data

Results flagged for a closer look

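The prostaglandin D2 synthase gene ptgds-b differed between the numbers by 1.43 in Sox17beta caps and by -1.0 in Mixer caps, so 2 injection groups moved in opposite directions. Its levels were 7.14, 7.63 and 7.09 on replicate 1 arrays of uninjected, Mixer and Sox17beta caps, and 6.14, 8.63 and 5.66 on replicate 2 arrays. It was the 1 tested probe set at least 2-fold apart in opposite directions in different groups. Each group has 1 pair, so the difference between groups was not tested.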

How the results depend on the processing

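At an adjusted p of 0.01, 3808 probe sets differed, 1909 higher and 1899 lower in replicate 1. Leaving out 1 pair gave 1211 to 4625 calls, 680 to 2490 of them higher and 531 to 2135 lower. These fits have 1 residual degree of freedom. The unpaired fit with no replicate block gave 4708 calls. With quantile normalization, median centring, cyclic loess, the filters on level or probe set type, an intensity trend or robust moderation, the counts of calls, and for the scalings and filters that of probe sets at least 2-fold apart in all groups, stayed within 1.5 times.

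Of 145 named probe sets, 138 were called. No called difference changed sign in any alternative. The call was lost for 52 without the Mixer pair, 18 without the uninjected pair, 5 without the Sox17beta pair, 21 with no replicate block, and at most 2 under another scaling or moderation.

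Median differences of lists moved by more than the spread of the 3 groups in these cases. For G2/M genes the median was 0.255 after quantile normalization, 0.152 after median centring, 0.289 after cyclic loess, and 0.11 to 0.162 with 1 pair left out. Median centring gave -0.087 for respiration genes, -0.29 for proteasome, -0.223 for translation factor and -0.095 for endoderm genes. Cyclic loess gave -0.237 for proteasome, -0.173 for translation factor and -0.078 for ribosomal protein genes, and quantile normalization -0.079 for the last. With 1 pair left out the range was 0.08 to 0.15 for immediate early genes, -0.185 to -0.065 for heat shock genes, -0.108 to -0.06 for respiration genes, and -0.195 to -0.125 for ribosomal protein genes. It was -0.28 to -0.258 for proteasome, -0.21 to -0.2 for translation factor, 0.15 to 0.28 for neural, -0.038 to -0.01 for endoderm and 0.01 to 0.15 for Wnt genes. The cause was not tested. Probe sets below the absent controls have values with no clear lower bound, and each number may be 1 batch, so no alternative tests number against batch.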
